A study of Mus musculus with 8 samples.

Results

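Genes of skeletal muscle contraction and energy supply were followed in RNA of the posterior capsule of the mouse knee, the fibrous tissue behind the joint. The set held 37 genes chosen by symbol, of 16464 listed genes in all: 14 of fast fibres, 7 of slow fibres, 9 of the sarcomere of both fibre types, 2 of excitation-contraction coupling and 5 of muscle metabolism. Values were analysed for 33 of the 37. The slow-fibre genes Myh7, Myl2, Myl3 and Tnni1 are not analysed here, which left Tnnt1, Tnnc1 and Mybpc1 for slow fibres. The group called cast held 4 capsule libraries from wild-type C57BL/6 mice whose knee was fixed by casting at an angle of 140 degrees for 2 weeks, started at 8 weeks of age. The group called naive held 4 capsule libraries from wild-type C57BL/6 mice without a cast. Both groups were 10 weeks old, and the protocol gives the mice as male. Whether each library is a separate mouse is not labelled, so the p values reflect the spread among these libraries alone, which may be technical. The comparison asks how the RNA of the capsule changed with immobility of the knee.

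The cast libraries held 5956148 to 7381255 reads, naive replicates 1 to 3 held 6038095 to 6805349, and naive replicate 4 held 1503880. Naive replicate 4 stood apart: it lists 2264 genes at 0, compared with 330 to 364 in the cast group and 487 to 608 in naive replicates 1 to 3. Across genes it correlated with the other naive libraries at r = 0.882 to 0.897, while those correlated with each other at 0.979 to 0.982. A value of 1.94 in naive replicate 4, and of 0.400 to 0.496 in the other 7 libraries, stood for 3 reads, the limit that a count of 0 allows. The tissue label was checked against 15 marker genes. These 15 fibroblast and capsule matrix genes, such as Col1a1, Lum and Prg4, had reads in each library and summed to 27532 to 45982 in cast libraries, 30047 to 48255 in naive replicates 1 to 3 and 31071 in naive replicate 4. The sum hides single genes: Lum had 1421 to 1976 in cast libraries, 241 to 440 in naive replicates 1 to 3 and 31.7 in naive replicate 4. Muscle results are therefore given with and without naive replicate 4.

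A skeletal muscle fibre shortens when myosin heavy chains of its thick filaments pull on actin filaments, and the heavy chain a fibre uses sets its speed. In the mouse Myh4 is the chain of type IIb fibres, Myh1 of type IIx and Myh2 of type IIa, all of them fast, while slow fibres use Myh7. Calcium released through Ryr1 binds troponin, which has separate fast and slow forms of each of its subunits, and Atp2a1 pumps the calcium back. Creatine kinase, glycogen phosphorylase and muscle enolase renew the ATP that is spent. A joint capsule is connective tissue, and the muscles that move the knee attach near it.

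Promoters of a few of these genes are shown as examples, and a common control of them was not tested. They are those of Acta1 and Ckm, skeletal actin and muscle creatine kinase, and of Myh1 and Myh4, which lie side by side on chromosome 11. The sequences are RefSeq's, on build GRCm38.p6, each 300 bases long with 250 before the start of the gene and 50 after it, and they read 5′ to 3′ on the strand of the gene. Capitals mark matches to the E-box CANNTG, the MEF2 consensus, the CArG box and TATAAA on either strand. Acta1 lies at chr8:123894726-123895025 (minus strand), Ckm at chr7:19410844-19411143 (plus strand), Myh1 at chr11:67199852-67200151 (plus strand) and Myh4 at chr11:67237562-67237861 (plus strand).
Acta1: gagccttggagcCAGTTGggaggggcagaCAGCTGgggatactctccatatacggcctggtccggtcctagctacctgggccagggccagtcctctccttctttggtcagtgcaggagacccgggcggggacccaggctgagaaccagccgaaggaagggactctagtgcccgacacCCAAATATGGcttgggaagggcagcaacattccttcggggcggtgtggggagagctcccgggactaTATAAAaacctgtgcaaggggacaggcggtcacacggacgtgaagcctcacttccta
Ckm: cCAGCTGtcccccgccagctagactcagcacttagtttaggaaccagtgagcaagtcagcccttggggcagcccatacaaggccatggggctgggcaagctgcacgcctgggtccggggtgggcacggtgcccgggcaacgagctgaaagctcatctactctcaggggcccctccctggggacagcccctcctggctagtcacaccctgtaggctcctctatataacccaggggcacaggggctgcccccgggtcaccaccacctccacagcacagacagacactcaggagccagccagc
Myh1: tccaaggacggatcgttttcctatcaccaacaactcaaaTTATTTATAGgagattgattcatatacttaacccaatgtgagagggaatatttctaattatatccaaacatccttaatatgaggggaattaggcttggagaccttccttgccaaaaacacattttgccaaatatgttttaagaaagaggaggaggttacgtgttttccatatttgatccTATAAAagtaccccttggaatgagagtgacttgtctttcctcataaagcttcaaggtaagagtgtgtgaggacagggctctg
Myh4: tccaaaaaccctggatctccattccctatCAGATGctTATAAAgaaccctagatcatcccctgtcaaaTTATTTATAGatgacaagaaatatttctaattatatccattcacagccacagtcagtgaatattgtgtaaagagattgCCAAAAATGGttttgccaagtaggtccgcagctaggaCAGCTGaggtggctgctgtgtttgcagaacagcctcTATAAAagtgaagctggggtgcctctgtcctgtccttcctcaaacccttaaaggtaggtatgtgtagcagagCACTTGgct
The table of promoters matched 26 of the 33 genes, with 30 promoters. An E-box stood in 23 of the 30 (76.7%), against 72.3% of all 32841 promoters searched. The MEF2 consensus stood in 5 (16.7%), namely Myh1, Myh4, Pvalb, Ttn and Xirp2, against 3.19% of all promoters. The CArG box stood in 4 (13.3%), of Acta1, Myh4 and both promoters of Ldb3, against 1.63%, and TATAAA stood in 6 (20%) against 13.6%. In Myh1 and Myh4 a TATAAA on the opposite strand lay inside the MEF2 match, and these were the only 2 member promoters with overlapping matches among the motifs searched. A match describes the letters of this window and is not evidence of binding.

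Part of the muscle genes were lower in the capsules of cast knees. With all 8 libraries 11 of 32 tested muscle genes fell and 0 rose (limma-trend on log2 of the normalised read count plus 1, Benjamini-Hochberg adjusted p at most 0.05 over all genes). Over all 15120 genes tested, 12.0% were called, 5.46% as lower and 6.51% as higher. The 11 were the fast-fibre genes Myl1, Mylpf, Tnni2 and Pvalb, the sarcomere genes Acta1, Ldb3 and Actn2, and the metabolic genes Ckm, Mb, Eno3 and Pygm. The median log2 fold change, cast minus naive, was -2.86 over the 32 and 0.07 over all genes tested. All 32 log2 fold changes were negative, although Tnnt1, with at most 5 reads in any library, turned positive in 2 alternatives, and 30 of the 32 were at -1 or below (4.74% of all genes tested). Tnnc1 was below the filter on low values and was not tested. In bulk tissue, fewer muscle fibres in a sample and less of a transcript per fibre cannot be told apart.

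The number of calls turned on naive replicate 4. Without it 31 of 31 tested muscle genes fell (8.47% of 15148 genes tested were called as lower, 17.6% in either direction), the median log2 fold change was -3.85 against 0.01 over all genes, and Tnnt1 dropped below the filter. With all 8 libraries 29 of the 32 had an unadjusted p under 0.05 by limma. The share of all genes at that limit is not given, so the count is not read as a result. On reads recovered from the deposited values, edgeR's quasi-likelihood test called 22 of 32 lower (6.20% of genes) and DESeq2 21 (8.54%), and neither called one higher. By edgeR without naive replicate 4, 29 of 32 fell (8.10%), and by limma without naive replicate 4 and cast replicate 1, 30 of 31 (10.3%), both chosen after seeing the data. Scaling factors computed without the muscle genes left the count at 11 of 32 (5.50%). Leaving out any 1 of the other 7 libraries gave 1 to 16 muscle genes lower, the fewest without cast replicate 3, when Myl1 alone passed. The share of all genes called as lower is not given for these fits, so the counts are not read as a result about the muscle genes. Of the 11 calls, Myl1 held without any 1 library, Acta1, Tnni2 and Ldb3 were lost without cast replicate 3 (adjusted p = 0.0501, 0.0520 and 0.0521), and Eno3 without cast replicate 3 or naive replicate 2 (at most 0.0544). Mb was lost without any of 4 libraries (adjusted p up to 0.0642), Pvalb and Ckm without any of 5 (up to 0.0678 and 0.0715), and Mylpf, Actn2 and Pygm without any of 6 (up to 0.136, 0.112 and 0.134).

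The libraries did not fall into muscle-rich and muscle-poor along the labels alone. The sum of the 33 genes was 991, 77.2, 97.4 and 267 in cast libraries 1 to 4, against 5337, 3833, 7555 and 243 in naive libraries 1 to 4. That is 0.101%, 0.00779%, 0.00970% and 0.0272% of the cast libraries, and 0.520%, 0.367%, 0.757% and 0.0249% of the naive libraries. Naive replicate 4 thus lay between cast replicates 3 and 4, and cast replicate 1 was the highest of its group. Every cast library was below naive replicates 1 to 3 in 30 of the 33 genes (15.1% of all genes tested), the others being Myh2, Tnnt1 and Tnnc1. Every cast library was below every naive library in only 3 of the 33, Myl1, Ldb3 and Eno3 (9.39% of all genes tested). In naive replicate 4 these had 17, 11 and 14 reads. Orderings of single genes against that library, here and below, do not account for counting error. Apart from Tnnt1 and Tnnc1, naive replicate 4 was the lowest naive library for 31 of 31 genes and naive replicate 3 the highest for 25. Within the cast group, replicate 1 was highest for 23 of 33 genes, replicate 4 for 9 and replicate 3 for 1.

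**Figure D1:**
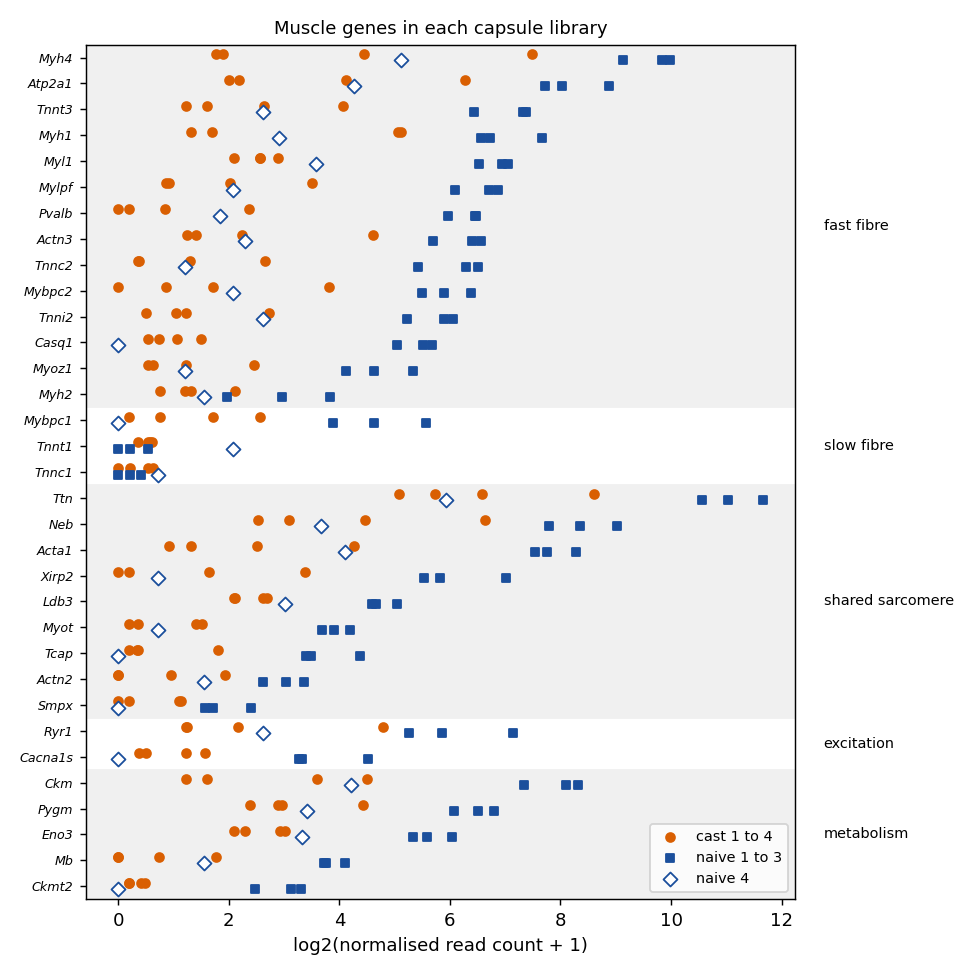
Each point is 1 library and each row 1 of the 33 muscle genes, grouped by role, with log2(normalised read count + 1) on the x axis. Filled circles are cast replicates 1 to 4, filled squares naive replicates 1 to 3 and open diamonds naive replicate 4. The open diamond lies among the circles in most rows, and for 30 of 33 genes all circles lie left of all squares.

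Among fast-fibre genes Myh4 had the highest mean level per kilobase in naive replicates 1 to 3 and Myh2 the lowest. Myh4, the IIb chain, had 179, 2.40, 2.73 and 20.7 normalised reads in cast libraries 1 to 4, against 909, 557, 1015 and 33.6 in naive libraries 1 to 4. Cast replicate 1 was above naive replicate 4, and all cast libraries were below naive replicates 1 to 3. Its log2 fold change was -4.62 ± 1.40 (SE, n = 4 each) and did not pass limma (adjusted p = 0.0615), while without naive replicate 4 it was -5.75 ± 1.18 (adjusted p = 0.0110). Myh1, the IIx chain, had 33.8, 2.25, 1.4998 and 32.5 in cast libraries, against 94.0, 105, 202 and 6.47 in naive libraries. Cast replicates 1 and 4 were above naive replicate 4, and limma gave -2.66 ± 1.17 (adjusted p = 0.182), or -3.69 ± 0.93 without naive replicate 4 (adjusted p = 0.0251). Myh2, the IIa chain, had 1.32, 1.499, 0.682 and 3.33 in cast libraries, against 13.3, 2.90, 6.78 and 1.94 in naive libraries. Cast replicate 4 was above naive replicates 2 and 4, and the difference was the smallest of the fast genes (log2 fold change -1.23, adjusted p = 0.147, and -1.57 without naive replicate 4, adjusted p = 0.0400). Without both naive replicate 4 and cast replicate 1, Myh2 was the 1 of 31 genes that did not pass.

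The light chains of fast myosin both fell. Myl1, which encodes the fast essential light chains, had 4.94, 4.95, 3.27 and 6.40 in cast libraries, against 132, 91.1, 123 and 11.0 in naive libraries. The groups did not overlap, and the cast values lay close together (4.89 ± 1.28 in cast libraries and 89.1 ± 54.9 in naive libraries, mean ± SD, n = 4 each). Its log2 fold change was -3.50 (adjusted p = 0.0111 by limma), and -4.31 without naive replicate 4 (adjusted p = 2.92e-05). Mylpf, the fast regulatory light chain, had 10.4, 0.899, 0.818 and 3.07 in cast libraries, against 116, 67.3, 104 and 3.23 in naive libraries. Cast replicate 1 was above naive replicate 4, and the call was at the threshold (log2 fold change -3.61, adjusted p = 0.0498 by limma, and -4.73 without naive replicate 4, adjusted p = 0.000980). Cast replicates 2 and 3 kept 4.30% and 2.84% of the naive replicate 1 to 3 level of Myl1, and 0.939% and 0.854% of that of Mylpf.

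The fast troponin genes Tnnt3, Tnni2 and Tnnc2 encode the tropomyosin-binding, inhibitory and calcium-binding subunits. Tnni2 had 5.60, 1.05, 0.409 and 1.33 in cast libraries, against 58.8, 36.5, 65.5 and 5.17 in naive libraries. It fell (log2 fold change -3.58, adjusted p = 0.0152 by limma), with cast replicate 1 just above naive replicate 4. Tnnt3 had 15.7, 1.35, 2.05 and 5.20 in cast libraries, against 159, 85.3, 165 and 5.17 in naive libraries. Tnnc2 had 5.27, 0.300, 0.273 and 1.47 in cast libraries, against 77.8, 41.8, 90.3 and 1.29 in naive libraries. In both, cast replicates 1 and 4 were above naive replicate 4, and limma gave adjusted p = 0.0527 for Tnnt3 and 0.0552 for Tnnc2. Naive replicate 4 had 8 reads of Tnnt3 and 2 of Tnnc2, so the place of that library against cast replicate 4 is uncertain. Without naive replicate 4 the log2 fold changes were -4.66 for Tnnt3 (adjusted p = 0.00124), -4.36 for Tnni2 (0.000538) and -4.91 for Tnnc2 (0.000563).

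Pvalb, the calcium buffer parvalbumin of fast fibres, fell further than any other fast gene that passed with all 8 libraries. It had 4.12, 0, 0.136 and 0.800 in cast libraries, against 87.5, 61.6, 86.1 and 2.59 in naive libraries. Only cast replicate 1 was above naive replicate 4 (log2 fold change -4.33 ± 0.99, adjusted p = 0.0217 by limma, and -5.45 ± 0.50 without naive replicate 4, adjusted p = 0.000263). The other 5 fast genes were Actn3, the fast alpha-actinin, Mybpc2, fast myosin-binding protein C, Myoz1, a Z-disc protein, and Atp2a1 and Casq1, the calcium pump and calcium store of the sarcoplasmic reticulum. Their log2 fold changes were -3.58 to -2.61 with adjusted p of 0.0606 to 0.102, and -4.56 to -3.48 without naive replicate 4, where each passed (adjusted p at most 0.00891). Casq1 had 1.81, 0.450, 1.09 and 0.667 in cast libraries, against 44.6, 31.9, 49.9 and 0 in naive libraries. The 0 of naive replicate 4 allows up to 1.94, so it cannot be ordered against the cast libraries. Over the 14 fast genes 4 fell with all 8 libraries, where 5.46% of all genes tested were lower, and 14 without naive replicate 4, where 8.47% were.

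Genes listed for slow fibres gave little to compare. Mybpc1, slow myosin-binding protein C, had 4.94, 0.150, 0.682 and 2.27 in cast libraries, against 13.7, 23.7, 46.1 and 0 in naive libraries. The 0 of naive replicate 4 allows up to 1.94. It was thus below cast replicates 1 and 4 and cannot be ordered against cast replicates 2 and 3. The cast libraries were below the other naive ones (log2 fold change -2.21, adjusted p = 0.221 by limma, and -3.38 without naive replicate 4, adjusted p = 0.00434). Tnnt1, the slow troponin T, had 0.494, 0.450, 0.273 and 0.533 in cast libraries, against 0.452, 0.161, 0 and 3.23 in naive libraries. Tnnc1, troponin C of slow and heart muscle, had 0.165, 0.450, 0.545 and 0 in cast libraries, against 0, 0.161, 0.331 and 0.647 in naive libraries. These values stood for at most 5 reads of Tnnt1 and 4 of Tnnc1 in any library, so a difference was not detectable at this depth. Limma called 0 of the 2 tested slow genes, with 0 at an unadjusted p under 0.05, edgeR called 1 (Mybpc1) and DESeq2 0. Reads of Tnnt1 were 0 to 3 in naive replicates 1 to 3, where Tnnt3 had 529 to 1053. Among the reads of both genes the slow form was 3.06%, 25.0%, 11.8% and 9.30% in cast replicates 1 to 4, with 3, 3, 2 and 4 reads of Tnnt1. In naive replicates 1 to 4 it was 0.284%, 0.189%, 0% and 38.5%, with 3, 1, 0 and 5 reads of Tnnt1. The share in naive replicate 4 was the highest, with an exact 95% interval of 13.9% to 68.4%. That interval overlapped those of cast replicates 2 (5.49% to 57.2%), 3 (1.46% to 36.4%) and 4 (2.59% to 22.1%), but not that of cast replicate 1 (0.636% to 8.69%).

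Among the sarcomere genes of both fibre types, Acta1, skeletal alpha-actin, had the lowest log2 fold change of the 32 by limma with all 8 libraries, close to Myh4, while Myh4 was lowest without naive replicate 4 and Pvalb by edgeR and DESeq2. It had 18.3, 0.899, 1.4998 and 4.67 in cast libraries, against 216, 184, 311 and 16.2 in naive libraries. Cast replicate 1 was above naive replicate 4 and the other cast libraries below every naive one (log2 fold change -4.66 ± 0.97, adjusted p = 0.0146 by limma, and -5.60 ± 0.68 without naive replicate 4, adjusted p = 0.000949). Ldb3, a Z-disc protein that binds alpha-actinin, had 5.11, 3.30, 3.27 and 5.47 in cast libraries, against 23.1, 24.2, 31.7 and 7.12 in naive libraries. Its groups did not overlap, with 11 reads in naive replicate 4 (log2 fold change -1.95, adjusted p = 0.0152 by limma, and -2.38 without naive replicate 4, adjusted p = 0.000297). Actn2, the alpha-actinin of the Z-disc, had 2.80, 0, 0 and 0.934 in cast libraries, against 7.23, 5.16, 9.26 and 1.94 in naive libraries. It fell by limma (log2 fold change -1.93, adjusted p = 0.0380, and -2.29 without naive replicate 4, adjusted p = 0.00951), cast replicate 1 being above naive replicate 4, but edgeR and DESeq2 did not call it (adjusted p = 0.0624 and 0.181).

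Ttn encodes titin, the spring that spans the half-sarcomere, and took the largest share of muscle reads. It had 389, 33.0, 52.2 and 95.2 in cast libraries, against 2081, 1502, 3246 and 60.2 in naive libraries. Cast replicates 1 and 4 were above naive replicate 4, and limma gave -3.29 ± 1.20 (adjusted p = 0.112), or -4.58 ± 0.70 without naive replicate 4 (adjusted p = 0.00287). The other 5 of these genes, Neb, Xirp2, Myot, Tcap and Smpx, had log2 fold changes of -3.47 to -0.81 that did not pass (adjusted p = 0.0714 to 0.345), and of -4.82 to -1.28 without naive replicate 4, where each passed (0.000758 to 0.0359). Neb encodes nebulin of the thin filament, and Tcap telethonin, which caps titin at the Z-disc. Smpx, a small muscle protein, was the lowest of these, at 0 to 1.20 in cast libraries, 1.96 to 4.30 in naive replicates 1 to 3 and 0 in naive replicate 4.

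The reads of Ttn for each read of Acta1, a ratio chosen after its values were seen and not corrected for length, were 21.3, 36.7, 34.8 and 20.4 in cast libraries 1 to 4, against 9.64, 8.17, 10.4 and 3.72 in naive libraries 1 to 4. Every cast library had the higher ratio. For Neb over Acta1 the ratio was 4.51 to 5.38 in the 4 cast libraries, against 1.52, 1.20, 1.66 and 0.720 in naive libraries, and again the groups did not overlap. Cast replicates 2 and 3 had 6 and 11 reads of Acta1. The ratios show that the members' levels differed unequally between libraries, and neither was tested.

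Both genes of excitation-contraction coupling were lower without naive replicate 4. Ryr1, the calcium release channel, had 26.5, 1.35, 1.36 and 3.47 in cast libraries, against 37.2, 56.6, 139.9 and 5.17 in naive libraries. Cast replicate 1 was above naive replicate 4 and the other cast libraries below every naive one, and limma gave -2.86 (adjusted p = 0.101), or -3.73 without naive replicate 4 (adjusted p = 0.0140). Cacna1s, the voltage sensor that opens it, had 1.98, 0.300, 0.409 and 1.33 in cast libraries, against 8.59, 9.03, 22.0 and 0 in naive libraries. The 0 of naive replicate 4 allows up to 1.94, so it cannot be ordered against cast replicates 2 to 4 (log2 fold change -1.86, adjusted p = 0.181 by limma, and -2.79 without naive replicate 4, adjusted p = 0.00196). With all 8 libraries limma called 0 of these 2. Both had an unadjusted p under 0.05 (0.0182 for Ryr1 and 0.0469 for Cacna1s), and Cacna1s was the 1 gene called by edgeR and by DESeq2.

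Metabolic genes had the highest share of falls of the 5 roles with all 8 libraries, 4 of 5 (5.46% of all genes tested), and 5 of 5 fell without naive replicate 4 (8.47%). This share does not rank the size of the falls. With all 8 libraries the median log2 fold change was -2.53 for metabolic genes and -3.53 for fast genes. Ckm, muscle creatine kinase, had 21.8, 1.35, 2.05 and 11.1 in cast libraries, against 316, 161, 274 and 17.5 in naive libraries. Cast replicate 1 was above naive replicate 4 (log2 fold change -4.25 ± 0.98, adjusted p = 0.0222 by limma, and -5.18 ± 0.71 without naive replicate 4, adjusted p = 0.00173). Mb, the oxygen store myoglobin of oxidative fibres, had 0.659, 0, 0 and 2.40 in cast libraries, against 12.5, 12.3, 16.2 and 1.94 in naive libraries. Here cast replicate 4 and not 1 was the highest cast library and the only one above naive replicate 4, which had 3 reads (log2 fold change -2.66, adjusted p = 0.0195, and -3.24 without naive replicate 4, adjusted p = 0.00120). Eno3, the muscle enolase of glycolysis, had 6.59, 3.90, 3.27 and 7.07 in cast libraries, against 47.2, 39.4, 64.5 and 9.06 in naive libraries. Its groups did not overlap, with 14 reads in naive replicate 4 (log2 fold change -2.49, adjusted p = 0.0158, and -3.07 without naive replicate 4, adjusted p = 0.000224). Pygm, muscle glycogen phosphorylase, had 20.4, 6.44, 4.23 and 6.80 in cast libraries, against 90.0, 66.3, 110.0 and 9.70 in naive libraries. Cast replicate 1 was above naive replicate 4 (log2 fold change -2.53, adjusted p = 0.0485, and -3.29 without naive replicate 4, adjusted p = 0.00125). Ckmt2, the mitochondrial creatine kinase of muscle, had at most 3 reads in any cast library and 28 to 59 in naive replicates 1 to 3, but 0 in naive replicate 4 (log2 fold change -1.91, adjusted p = 0.0830, and -2.65 without naive replicate 4, adjusted p = 0.000297).

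**Figure D2:**
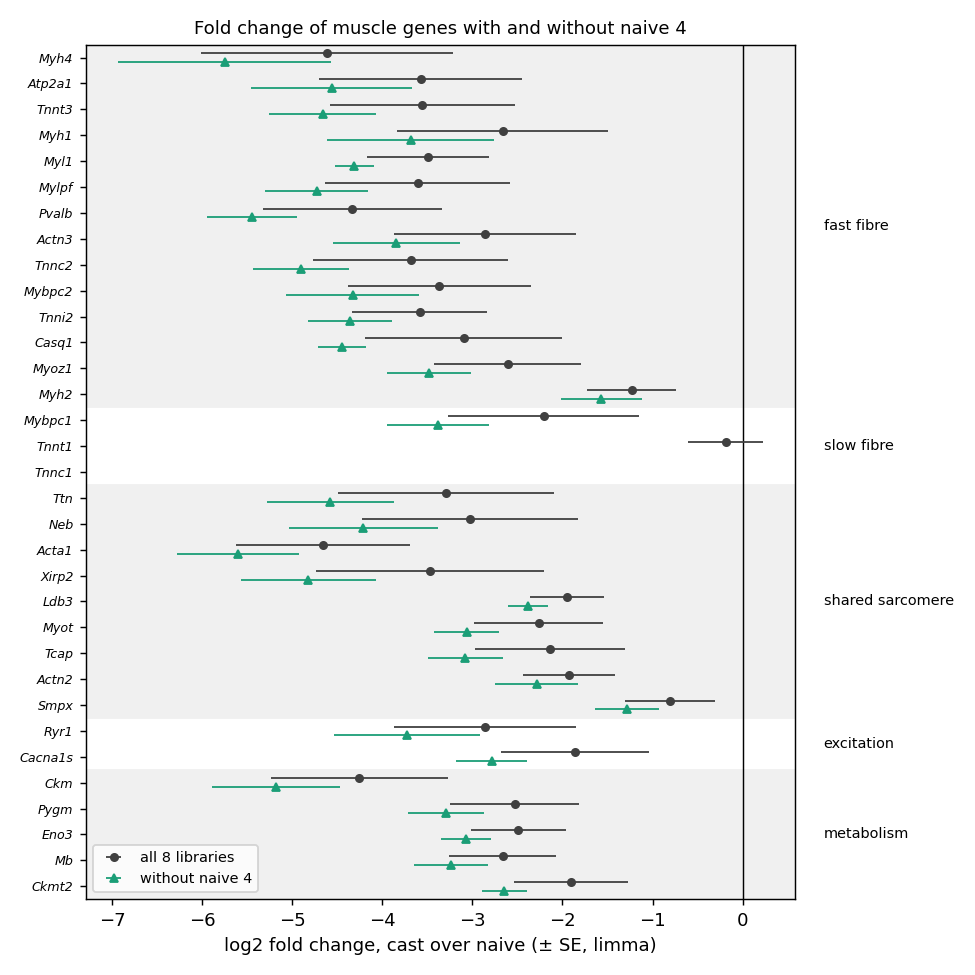
Log2 fold change of each tested muscle gene, cast over naive, with its SE from limma on the x axis and genes by role on the y axis. Circles are from all 8 libraries and triangles from 7, without naive replicate 4, whose medians are -2.86 and -3.85; the triangle lies left of the circle in each row that has both.

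The level left in each library was set against the mean of naive replicates 1 to 3, over 31 genes without Tnnt1 and Tnnc1. The median gene stood at 16.9%, 1.14%, 1.75% and 5.06% of that mean in cast libraries 1 to 4, and at 4.84% in naive library 4. The spread between genes was wide. Genes of cast replicate 1 ranged between 4.29% for Myl1 and 40.6% for Smpx, and those of cast replicate 4 between 1.02% for Pvalb and 43.6% for Myh2. In cast replicates 2 and 3 the highest were Myh2 at 19.6% and Ldb3 at 12.4%, and in naive replicate 4 it was Ldb3 at 27.0%. By role the median fast gene stood at 14.2%, 1.03%, 1.23% and 3.75% in cast libraries 1 to 4 and at 4.87% in naive library 4. The median metabolic gene stood at 8.69%, 2.12%, 1.93% and 7.66% in cast libraries and at 10.9% in naive replicate 4. Metabolic genes were thus below fast genes in cast replicate 1 and above them in the other cast libraries, a difference that was not tested.

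**Figure D3:**
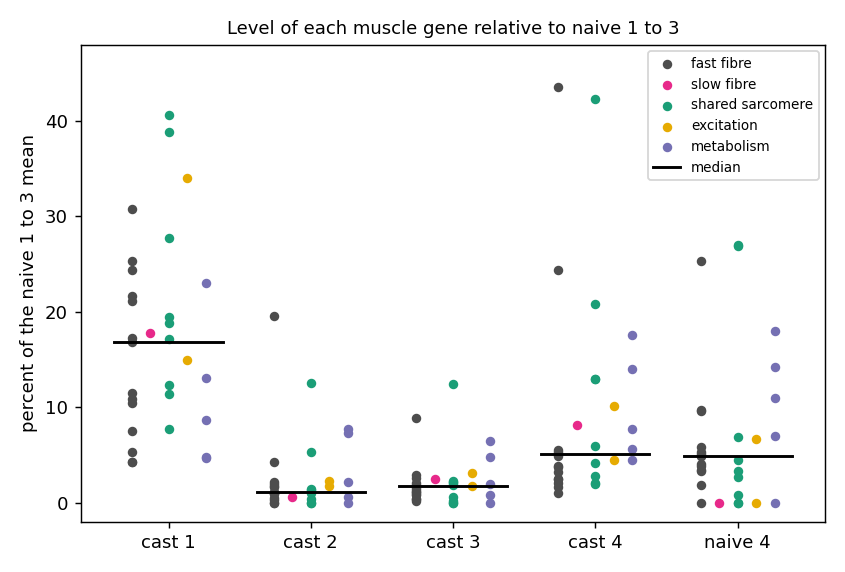
Level of 31 muscle genes in the 4 cast libraries and naive replicate 4, in percent of the mean of naive replicates 1 to 3 (y axis). Points are genes, coloured by role, and the bar is the median, 16.9% in cast replicate 1 and 1.14% in cast replicate 2.

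Per kilobase of the longest coding transcript, the level of Myh4 was the highest of the muscle genes in cast libraries, with a mean of 8.52, followed by Atp2a1 at 7.12 and Tnnt3 at 5.62. In naive replicates 1 to 3 that order was headed by Acta1 at 164, then Myh4 at 137.5, Tnnt3 at 126 and Mylpf at 125. Cast replicate 1 had 1087 reads of Myh4, against 16, 20 and 155 in cast replicates 2 to 4, so the cast means lean on that library.

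The mix of fast myosin heavy chains also differed between libraries. Per kilobase of the median transcript length, the IIb chain Myh4 made up 83.6%, 39.2%, 55.7% and 36.6% of the sum of the 3 fast chains in cast replicates 1 to 4. In naive replicates 1 to 4 its share was 89.5%, 83.8%, 83.0% and 80.1%, so that cast replicate 1 lay within the naive range and the other cast libraries below it. The IIx chain Myh1 took 15.7%, 36.7%, 30.6% and 57.6% in cast libraries, against 9.24%, 15.8%, 16.5% and 15.4% in naive libraries. Myh2 took 0.607%, 24.1%, 13.7% and 5.82% in cast libraries, against 1.29%, 0.430%, 0.546% and 4.55% in naive libraries. The reads behind these shares were 1300, 41, 36 and 424 in cast libraries 1 to 4, against 6744, 4125, 7402 and 65 in naive libraries 1 to 4. The exact (Clopper-Pearson) 95% interval of the Myh1 share of reads was 52.7% to 62.3% in cast replicate 4, above those of all naive libraries, whereas that of cast replicate 2 (22.1% to 53.1%) overlapped the interval of naive replicate 4 (7.63% to 26.5%). The interval of cast replicate 3 (16.3% to 48.1%) overlapped those of naive replicates 2, 3 and 4, as did that of cast replicate 1 (13.8% to 17.9%). Such intervals, and the limits for a count of 0, cover counting error only. Myh1, Myh2 and Myh4 are identical to another myosin heavy chain in places. Of their 150-base windows 2.49%, 2.06% and 0.511% occur in another, and of their 50-base windows 26.7%, 26.9% and 18.9%. Reads may thus have been split between these genes, and how many was not tested.

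**Figure D4:**
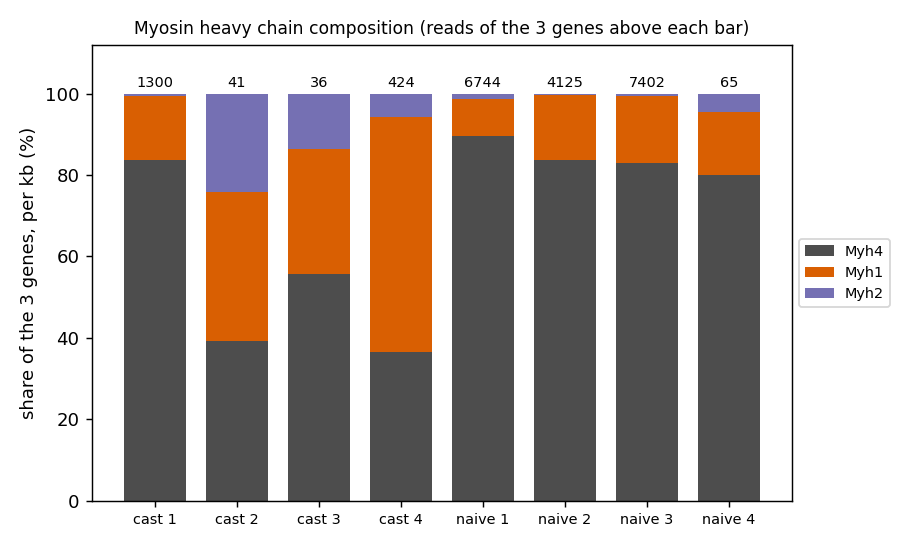
Share of Myh4, Myh1 and Myh2 in their summed level per kilobase (y axis, percent) in each library, with the reads of the 3 genes above each bar. Myh4 takes 80.1% to 89.5% in the naive libraries and in cast replicates 2 to 4 at most 55.7%.

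The light chain pair gave a ratio that also split the cast group. Myl1 over Mylpf, per kilobase of the median transcript length and chosen after the values were seen, was 0.332, 3.83, 2.79 and 1.45 in cast libraries 1 to 4, against 0.788, 0.944, 0.825 and 2.37 in naive libraries 1 to 4. Mylpf had 6 reads in each of cast replicates 2 and 3 and 5 in naive replicate 4. The 3 libraries with the highest ratio were those with the fewest reads of Mylpf.

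Other skeletal muscle genes, listed apart from the 37 genes, were lower in part. Their counts stand beside 5.46% of all genes tested as lower with all 8 libraries and 8.47% without naive replicate 4. Of 22 tested further sarcomere genes 4 fell and 18 did not pass, with a median log2 fold change of -0.92, and 14 of 22 fell without naive replicate 4. Klhl41, a stabiliser of nebulin, had a log2 fold change of -1.75 (adjusted p = 0.00758), Klhl40, its relative, -1.12 (0.0244), and Tpm2, beta-tropomyosin, which smooth muscle also uses, -0.77 (0.0164). Of 17 further genes of excitation and calcium handling 4 fell and 13 did not pass (median -0.85), and 11 of 17 fell without naive replicate 4. Hrc, a calcium-binding protein of the sarcoplasmic reticulum, had 0.659, 0.150, 0.682 and 0.400 in cast libraries, against 9.34, 9.03, 12.9 and 3.23 in naive libraries, without overlap (log2 fold change -2.60, adjusted p = 0.00244). Cacng1 and Cacnb1, subunits of the calcium channel, had -1.66 and -0.88 (0.0140 and 0.0313). Of 22 further metabolic genes 5 fell and 17 did not pass (median -0.84), and 12 of 21 fell without naive replicate 4. Pfkm, muscle phosphofructokinase, had 21.3, 20.5, 19.6 and 18.4 in cast libraries, against 63.0, 55.8, 83.7 and 44.6 in naive libraries, again without overlap (log2 fold change -1.55, adjusted p = 0.00195). Fabp3, a fatty acid carrier, and Hk2, a hexokinase, had -1.31 and -1.13 (0.00600 and 0.0103). Of 12 genes of the dystrophin complex 2 fell, Sspn (-0.95, adjusted p = 0.00462) and Dag1 (-0.96, 0.0319), and 6 fell without naive replicate 4. Many genes of these lists are also used by other tissues of the capsule.

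Genes of developing and stressed muscle were looked at beside them. Of 14 genes of regeneration 4 were tested, and the smallest adjusted p was 0.182 (Myf6). Without naive replicate 4 Myf6 was the 1 gene of the 4 that fell (log2 fold change -1.05, adjusted p = 0.0198 by limma), where 8.47% of all genes tested were lower. Myh3, embryonic myosin heavy chain, had 4.29 in cast replicate 1 and 0 in the other 7 libraries. Trim63, a ubiquitin ligase of muscle atrophy, had 13.3, 0.150, 0.136 and 0.400 in cast libraries, against 2.71, 1.13, 1.98 and 1.94 in naive libraries (adjusted p = 0.798). Both were named after their values were seen, and in both the highest value was in cast replicate 1, the cast library with the highest sum of muscle genes. Of 14 tested genes of atrophy and denervation 3 rose, Runx1 (log2 fold change 1.72, adjusted p = 0.00339 by limma) and Gadd45a (2.25, 0.00438) among them, and 1 fell, Foxo1 (-1.05, 0.0174). Over all genes tested 6.51% rose and 5.46% fell. Runx1, Gadd45a and Foxo1 are also used by many other cell types.

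Markers of some other cell types differed between the groups, while the sums of smooth muscle, nerve sheath, endothelial and cartilage genes overlapped. Over all genes tested 5.46% were called as lower and 6.51% as higher with all 8 libraries. Erythroid genes summed to 5900 to 28958 in cast libraries, 1687 to 2317 in naive replicates 1 to 3 and 2880 in naive replicate 4, and 8 of 8 rose. Neutrophil genes summed to 426 to 5408 in cast libraries, 4.79 to 41.5 in naive replicates 1 to 3 and 36.2 in naive replicate 4, and 4 of 7 rose. Fat cell genes summed to 2339 to 8937 in cast libraries, 6791 to 7698 in naive replicates 1 to 3 and 12274 in naive replicate 4, where they were highest, and 5 of 10 fell. The sums of fat cell genes overlapped, but their mean log2 levels did not. Those were 6.02, 7.64, 6.95 and 7.93 in cast libraries 1 to 4, against 8.46, 8.59, 8.73 and 9.15 in naive libraries 1 to 4. Smooth muscle genes summed to 838 to 1071 in cast libraries, 644 to 866 in naive replicates 1 to 3 and 1242 in naive replicate 4, and nerve sheath genes to 281 to 533 in cast libraries, 486 to 529 in naive replicates 1 to 3 and 610.0 in naive replicate 4. Of the 10 smooth muscle and 8 nerve sheath genes 1 of each list fell and 0 rose. Endothelial genes summed to 892 to 1249.7 in cast libraries, 822 to 923 in naive replicates 1 to 3 and 1232 in naive replicate 4, and 0 of 6 were called. Cartilage genes summed to 24.3 to 164 in cast libraries, 28.4 to 48.1 in naive replicates 1 to 3 and 28.5 in naive replicate 4, and heart muscle genes to 4.23 to 7.74 in cast libraries, 9.34 to 16.8 in naive replicates 1 to 3 and 12.9 in naive replicate 4. Of 5 tested cartilage genes 1 rose and 1 fell, and of 2 tested heart muscle genes 1 fell and 0 rose. Of the 15 capsule fibroblast genes 1 rose, Lum (log2 fold change 3.22, adjusted p = 0.0157 by limma), and 1 fell, Clec3b (-2.70, 0.000191). Each listed gene had at least 8 reads over all libraries, so no marker analysed could be at 0 in every library. The part of these cell types in the muscle result was not tested.

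**Figure D5:**
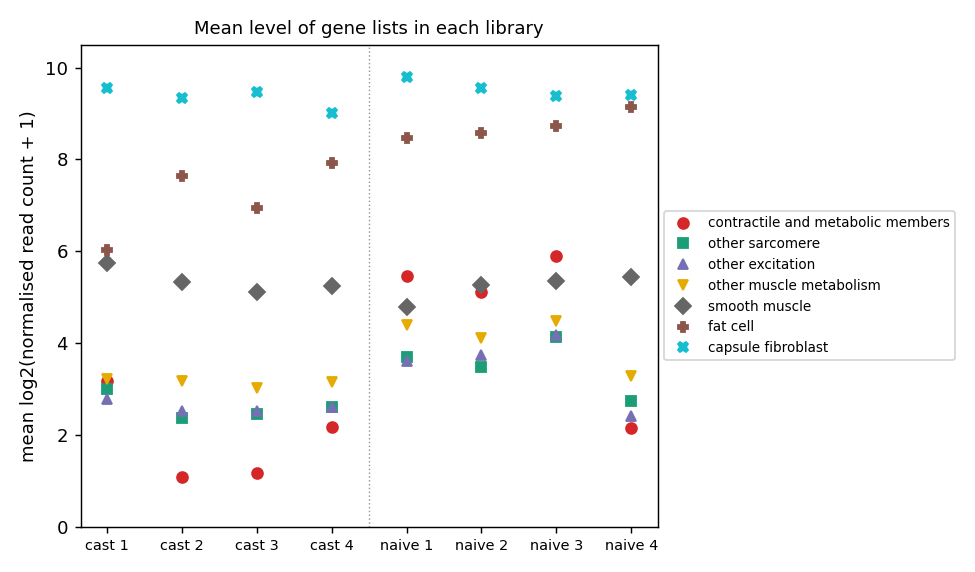
Mean log2(normalised read count + 1) of gene lists (y axis) in each library (x axis), cast libraries on the left and naive libraries on the right. The 33 contractile and metabolic genes are at 1.10 to 3.18 in cast libraries, 5.11 to 5.90 in naive replicates 1 to 3 and 2.15 in naive replicate 4. The mean of the capsule fibroblast genes is between 9.02 and 9.79, although among them Lum rose and Clec3b fell.

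Across the 8 libraries the muscle genes followed one another. Pearson's r of each gene's log2 level with the mean of the 33 was 0.799 to 0.998 for 31 of them and at least 0.9 for 30, with Myh2 the lowest and Tnnt3 the highest. That mean includes the gene itself, which raises r. Tnnt1 and Tnnc1 had r of -0.40 and -0.49. Of 11753 other genes with a mean of at least 5, which are not part of that mean, 85 reached 0.9 and the median was 0.05. The 10 most like were Myom2 (0.997), Klhl31 (0.989), Trdn (0.985), Mylk2 (0.973), Camk2n1, Gphn, Sox6, Ak3, Zak and Smim14 (0.963). Myom2 encodes a protein of the M-band, Trdn triadin of the calcium release complex and Mylk2 the myosin light chain kinase of skeletal muscle. Their ranges differed: Myom2 had 4.45, 0.150, 0.545 and 1.73 in cast libraries, against 24.3, 18.2, 42.2 and 1.29 in naive libraries, while Smim14 had 90.3, 84.1, 78.8 and 81.4 in cast libraries, against 135, 145, 152 and 86.7 in naive libraries. Naive replicate 4 was nearer to the cast libraries in both. These correlations describe 8 libraries of 2 groups that share depth and tissue makeup, and carry no p.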

How the data were processed

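Per the labels' protocols, Trizol RNA of frozen capsules went into rRNA-depleted, directional libraries that were read in pairs of 150 bases. The protocol text names Trimmomatic 0.38 and human hg38 transcripts, while mm10, RSEM, Bowtie2, edgeR and Trimmomatic 0.36 stand in the submitters' processing notes. These statements conflict, and the symbols are those of mouse genes. The values the authors deposited are a signal, normalised read counts for each gene in each library. Each value was a whole multiple of the value of 1 read within 0.01 for 100% of genes, so whole reads were recovered, 1503880 to 7381255 per library. The smallest sum of reads of a listed gene was 8. Whether counting used the strand is not given in the sources used here: 6 of the muscle genes (Tnnt3, Tnnc2, Atp2a1, Tnnc1, Ckm and Mb) overlap a listed gene on the opposite strand and are uncertain in that respect.

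Values were taken to log2 after adding 1, so fold changes of low genes are understated. All genes averaging 0.5 or more were fitted with limma-trend, cast against naive, with Benjamini-Hochberg adjustment over all genes at 0.05. The fitting code was tested on simulated data. The members, lists and tests were chosen with earlier results of these data known. Values in every library are given for members past the threshold, the myosin heavy chains, the troponins, the 2 members of each role with the highest mean per kilobase, and those with the highest and lowest fold change. Other lists name the 3 genes with the smallest p. Likeness names the 10 genes, with a mean of at least 5, that correlate best with the mean level of the members. Transcript lengths and overlaps came from GENCODE on GRCm38. Alternatives were other pseudocounts, filters, scalings, variance models and tests, a replicate block, a muscle covariate and each library left out. Those without naive replicate 4 by edgeR, and without naive replicate 4 and cast replicate 1, were chosen after seeing the data. Statistics used scipy 1.17.1, numpy 2.4.6 and pandas 2.3.3 in Python 3.11.15, with figures by matplotlib 3.10.9, and DESeq2 1.42.0, edgeR 4.0.16 and limma 3.58.1 in R 4.3.3.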

Additional observations from a re-analysis of the deposited data

Results flagged for a closer look

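In 7 of 68 groups of 4 libraries, 1 library lay far from the other 3 by Dixon's 95% criterion, where chance gives about 1 in 20, or 3.4 groups. In 6 of the 7 the library was naive replicate 4, the lowest of its group: Myl1 at 11.0, Mylpf at 3.23, Casq1 at 0, Pvalb at 2.59, Myot at 0.647 and Mb at 1.94 normalised reads. In the other it was cast replicate 1, the highest of its group, with Tcap at 2.47. The members' values are correlated, so these flags are not independent of each other.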

How the results depend on the processing

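Members that fell numbered 11 with all 8 libraries (5.46% of all genes tested were lower), and between 9 and 13 with other pseudocounts, filters, scalings without quantiles and no trend. They numbered 22 with edgeR (6.20%), 21 with DESeq2 (8.54%), 30 without naive replicate 4 and cast replicate 1 (10.3%), and 29 with edgeR without naive replicate 4 (8.10%). With quantile normalisation they numbered 19 and with array weights 31. With the level of other muscle genes as a covariate 1 fell (Tnnt1) and 1 rose (Cacna1s). No member rose in any other setting run. Where no share of all genes called as lower stands beside a count, the count is not read as a result about the members. Leaving out 1 library gave 1 to 31 members, 916 to 2665 genes and medians of -3.85 to -2.41. Genes changed numbered 1810, and 3985 with array weights, 2754 with DESeq2, 4722 with the covariate and 3278 without naive replicate 4 and cast replicate 1. The members' median log2 fold change was -4.38 with array weights, -0.081 with the covariate and -4.54 without both libraries. With the covariate, which shares its tissue with the members, 15 of 32 members had a positive log2 fold change, and of the named members the direction turned for Myh1 (0.84), Tnnc2 (0.074), Mybpc1 (1.44), Ttn (0.82), Ryr1 (0.30) and Cacna1s (1.01, adjusted p = 0.0431 by limma). Tnnt1 turned with array weights (0.20) and with edgeR without naive replicate 4 (0.997). The cause of these changes was not tested. Of 480 results for 21 named members, 359 kept direction and side of the threshold, 60 lost the call, 53 gained it and 8 turned. The Myh1 share in cast replicate 4 was 57.6%, 57.3% and 57.5% under the lengths tried.

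Replicate numbers did not pair the libraries: deviations of same-numbered libraries correlated at 0.08, 0.04, -0.06 and -0.02, and cast replicate 1 correlated best with naive replicate 2 (0.23). With replicate number as a block, 8 members and 1371 genes were called. The depth of naive replicate 4, where 1 read is worth 0.647, limits what it can show for members under about 1.94.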
